A study of Mus musculus with 12 samples.

Results

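Regions of the mouse genome that carried called H3K27me3 in both adult populations of the small-intestinal epithelium and in neither embryonic population are described here. The lists of enriched islands were laid on the 200 bp grid on which their borders fall, and windows covered in both stem cell lists and both enterocyte lists, and in none of the 4 embryonic lists, were kept and merged where they adjoined. This gave 1288 adult-only stretches with a total length of 4.45 Mb, among 29391 merged regions and 372 Mb called in at least 1 of the 8 lists. The 22242 windows kept were 1.20% of the windows called in any list and 17.3% of the windows called in all 4 adult lists. The stretches were chosen by the authors' calls, so their presence in adult lists and absence from embryonic lists is a description and was not tested.

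H3K27me3 is the trimethylation of lysine 27 of histone H3. It is placed by Polycomb repressive complex 2, marks silent genes in broad domains, and is bound by Polycomb repressive complex 1. In the developing gut, as in other tissues, Polycomb domains keep regulators of other lineages silent, and their make-up differs between cell types and developmental stages. The intestinal epithelium is renewed throughout adult life by Lgr5-positive stem cells at the crypt base, whose progeny differentiate into absorptive enterocytes and secretory cells as they move towards the villus.

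ChIP-seq, the sequencing of DNA recovered with an antibody to the mark, was made on 4 sorted populations of a mixed C57BL/6 CD1 strain, with 2 ChIP libraries for each, which the series design calls biological duplicates, and 1 input library. The adult populations were Lgr5+ intestinal stem cells (ISC, sorted for high EGFP) and enterocytes (AE), both taken at postnatal day 60 from males of the Lgr5EGFP-Cre-ERT line, which carries EGFP and a tamoxifen-inducible Cre at the Lgr5 locus. The embryonic populations were EpCAM+ small-intestinal epithelium at the embryonic stages E12.5 and E14.5, counted in days, for which the labels give neither sex nor a transgene. Enterocytes and embryonic cells were sorted as EpCAM-positive living cells without the endothelial marker CD31 and the blood cell marker CD45. The enterocyte gate used EpCAM and no marker of absorptive cells, so other epithelial cells of the villus fraction could remain in it. The lists carry no gene names and no annotation of their build, mm9, was used here, so each population could not be checked against marker genes, and whether a region lies in a gene, exon, intron or UTR is not given.

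Called length was 241 and 60.8 Mb in the ISC lists, 80.0 and 91.0 Mb in the AE lists, 62.5 and 76.0 Mb in the E12.5 lists and 75.9 and 109 Mb in the E14.5 lists. ISC replicate 1 therefore stood apart in length, and without it 1320 stretches with 4.60 Mb met the rule. The total depended more on the other adult lists: without ISC replicate 2 the rule gave 2858 stretches with 11.2 Mb, without AE replicate 1 it gave 6.74 Mb and without AE replicate 2 it gave 6.76 Mb. Reads inside islands numbered between 1493464 and 6627853 in the adult lists and between 1171968 and 3020599 in the embryonic lists. A list holds reads only for its own islands, so the embryonic level of the mark in an adult-only stretch is unknown. Not being called in a list does not exclude a lower level, and a mark carried by fewer cells cannot be told apart from a weaker mark in all cells.

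The adult-only stretches were short pieces of larger adult islands. Their median length was 2.6 kb, with the middle of the distribution between 1.2 and 4.8 kb (quartiles) and a range of 0.2 to 31.6 kb. Stretches in all 4 adult lists that at least 1 embryonic list also covered had a median of 5 kb over 3198 stretches. The opposite class, called in all 4 embryonic lists and in no adult list, held 434 stretches with a median of 2.4 kb and took 0.380% of the called windows. That class had to avoid the 241 Mb of ISC replicate 1, while the longest embryonic list covered 109 Mb. A further 1.52 Mb lay in all 4 embryonic lists and exactly 1 adult list. The sizes of the 2 classes are therefore not directly comparable. Of the adult-only stretches, 70 were a single window and 239 were shorter than 1 kb, and these 239 made up 2.49% of the length. The 307 stretches of 5 kb or more held 54.1% of the length and the 41 of 10 kb or more held 14.1%. The adult-only length was therefore spread over many sites, with 6.24% of it in the 12 longest stretches.

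**Figure D1:**
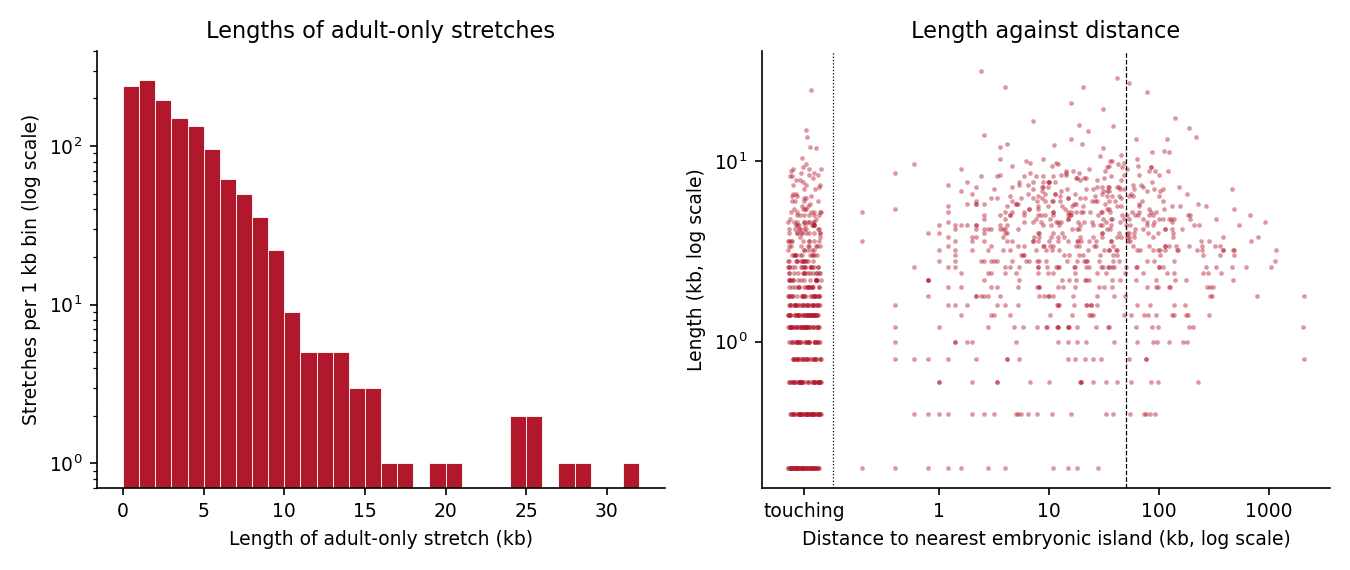
Lengths of the 1288 adult-only stretches in bins of 1 kb, with the count on a log scale (left), and the length of each stretch against its distance to the nearest embryonic island, both on log scales (right). Stretches that touch an embryonic island are drawn left of the dotted line with a small horizontal scatter, and the dashed line marks 50 kb; the touching stretches have a median length of 1.4 kb and those beyond 50 kb one of 3.4 kb.

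Many of the adult-only stretches adjoined an island of at least 1 embryonic list. An embryonic island began directly at an edge of 547 stretches (42.5%), on both sides in 61 of them. A call in only 1 of the 4 embryonic lists was enough for this. The touching stretches were shorter, with a median of 1.4 kb, and held 1.21 Mb. A further 165 stretches lay within 5 kb of an embryonic island, 369 between 5 and 50 kb, and 207 (16.1%) more than 50 kb away. The share beyond 50 kb was 34.0% when only islands with a fold over control of 1.5 or more were used in all 8 lists. It was 36.2% with only islands of an FDR of 1e-10 or less. With each list cut to an equal covered length, that of the shortest list, it was 19.5%. These settings also shortened the embryonic lists, to which distance was measured. At a fold of 1.5 or more, E12.5 replicate 1 covered 16.5 Mb, against 62.5 Mb in full. The stretches more than 50 kb away had a median length of 3.4 kb and held 0.887 Mb, and 109 stretches were over 100 kb away. In the opposite class, 196 of the 434 embryonic-only stretches (45.2%) touched an adult island and 81 (18.7%) lay more than 50 kb from one. The adult lists, to which this distance was measured, include the 241 Mb of ISC replicate 1. The difference between the classes was not tested.

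The embryonic island at the border was more often one of E14.5. An E14.5 island adjoined 385 adult-only stretches and an E12.5 island 202, with 40 stretches adjoining both. E14.5 replicate 2, the longest embryonic list, adjoined 292 stretches. E14.5 replicate 1 adjoined 138, E12.5 replicate 2 adjoined 140 and E12.5 replicate 1 adjoined 72. The order of these counts was the order of the list lengths, and the part of list length in it was not tested.

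The adult islands that held these stretches were read as whole domains. For 458 stretches (35.6%), none of the 4 adult islands over the stretch covered any embryonic window, and for 559 (43.4%) all 4 did. The first kind held 2.05 Mb with a median stretch length of 3.8 kb and a median distance of 42.4 kb to the nearest embryonic island. The second kind held 1.25 Mb with a median stretch length of 1.4 kb. The 964 ISC replicate 1 islands that held stretches had a median length of 20.2 kb, and the median share of such an island that was adult-only was 17.1%. Holding islands were shorter in the other adult lists, with medians of 8.6 kb in ISC replicate 2, 12.4 kb in AE replicate 1 and 8.8 kb in AE replicate 2, and the median adult-only shares were 39.9%, 26.9% and 39.5%. Islands that were adult-only over their whole length numbered 2 in ISC replicate 1, 106 in ISC replicate 2, 13 in AE replicate 1 and 119 in AE replicate 2.

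Most edges of the stretches were set by 1 adult list and not by the embryo. Of 2576 edges, 1817 (70.5%) lay where exactly 1 adult list ended with no embryonic island beyond. ISC replicate 2 was that list at 751 edges, AE replicate 2 at 679, AE replicate 1 at 299 and ISC replicate 1 at 88. An embryonic island began at 608 edges (23.6%). The shortest adult list, ISC replicate 2, thus set an edge most often, and the lengths given here depend on it.

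Adult islands just inside and just outside the rule were described by their fold over control, a ratio that the authors computed from ChIP and control reads after scaling for library size. Windows in all 4 adult lists and in exactly 1 embryonic list covered 2.26 Mb, of which 1.32 Mb were called only in E14.5 replicate 2. Windows in 3 adult lists and in no embryonic list covered 11.5 Mb, of which 6.80 Mb lacked only ISC replicate 2. Median folds of the islands over adult-only windows were 1.90 and 1.47 in ISC replicates 1 and 2 and 1.44 and 1.58 in AE replicates 1 and 2. Islands over windows with exactly 1 embryonic list had medians of 1.96, 1.48, 1.43 and 1.58 in the same order of libraries. Islands over windows in 3 adult lists had medians of 1.68, 1.42, 1.41 and 1.5. An island with windows of more than 1 of these classes entered each of them, so the medians can share islands.

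Leaving a library out of the rule gives a measure of calling that its choice of windows did not use. When an embryonic library was left out, windows were chosen with the 4 adult lists and the 3 remaining embryonic lists, and the coverage of these windows by the left-out list was read. E12.5 replicates 1 and 2 covered 5.91% and 6.97% of their windows, and E14.5 replicates 1 and 2 covered 6.96% and 22.8%. Of windows in all 4 adult lists that another embryonic list did cover, the same libraries covered 58.5%, 76.9%, 85.8% and 94.1%. Windows called in none of 3 embryonic lists were thus called in few places in the fourth, and E14.5 replicate 2 stood above the other embryonic libraries.

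Left-out adult libraries covered more of the windows chosen without them. ISC replicates 1 and 2 covered 96.8% and 39.6%, and AE replicates 1 and 2 covered 66% and 65.8%. Of windows in the 3 other adult lists that an embryonic list also covered, they covered 98.3%, 72.1%, 84.7% and 85.4%. The mean was 67.0 ± 23.4% for the adult libraries and 10.7 ± 8.13% for the embryonic libraries (SD, n = 4 each). Adult libraries were read in windows that the other adult lists called, and embryonic libraries in windows that the other embryonic lists lacked. The choice of windows therefore favoured this order of the means, and the contrast is only a description. In each of the 4 adult libraries the coverage was lower in windows without than in windows with an embryonic call. The windows differ from library to library, so no test was made of these shares. ISC replicate 1, with the highest share, also had the longest list. With all lists cut to equal covered length, ISC replicates 1 and 2 covered 69.6% and 58.8%. AE replicates 1 and 2 then covered 75.4% and 72.1%, so ISC replicate 1 no longer had the highest share. The part of list length was not tested.

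**Figure D2:**
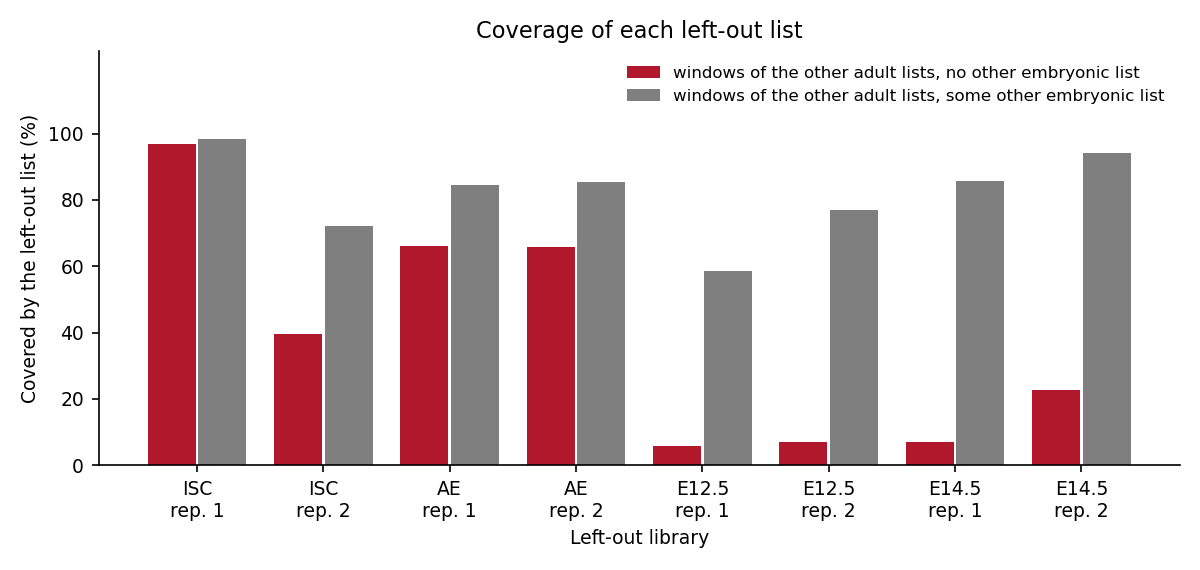
Share of windows (percent) covered by each library when that library had no part in choosing them: windows of all other adult lists that no other embryonic list covers (red) and that at least 1 other embryonic list covers (grey). Red bars run from 39.6 to 96.8% in the adult libraries and from 5.91 to 22.8% in the embryonic libraries.

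The longest adult-only stretches lay on 6 chromosomes, and 11 of the 12 had an E12.5 island as the nearest embryonic island. They spanned 15.8 to 31.6 kb. Distances to the nearest embryonic island ran from 0 to 140.4 kb, with 3 stretches beyond 50 kb. In 5 of the 12, none of the 4 adult islands covered an embryonic window, and in 5 all 4 folds were at least 1.5. Coordinates below are 1-based on mm9. Folds and reads given for a stretch, here and below, are those of the whole island of each list that holds it. Such an island can be longer than the stretch and can also cover embryonic windows. Intervals of folds are 95% exact binomial intervals of the ChIP and control read counts and cover counting error only.

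The first of them, 31.6 kb at chr7:52918001-52949600, lay 2.4 kb from an E12.5 island and 3.2 kb from an E14.5 island. Its islands spanned 119 and 41.2 kb in ISC and 102.6 and 41.4 kb in AE. ISC replicate 1 had 6239 ChIP and 2727 control reads there, a fold of 2.92 (95% interval 2.79 to 3.05), and ISC replicate 2 had 1105 and 1005 reads, a fold of 1.53 (1.40 to 1.66). The AE replicates had 6215 and 1688 ChIP reads and folds of 1.87 (1.79 to 1.97) and 1.99 (1.83 to 2.15). The AE folds lay between those of the ISC replicates.

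A stretch of 28.8 kb at chr15:100604001-100632800 lay 41.2 kb from any embryonic island, and ISC replicate 2 called exactly this interval as 1 island, with 620 ChIP and 715 control reads and a fold of 1.20 (1.08 to 1.34). The other adult lists gave folds of 1.74 in ISC replicate 1 and 1.38 and 1.52 in AE, from islands of 58 to 59.4 kb. ISC replicate 2 was thus the weakest of the 4 and alone fixed both borders. A stretch of 27 kb at chr9:42739001-42766000 lay 53.2 kb from an E12.5 island and 197.8 kb from an E14.5 island, with folds of 2.02 and 1.64 in the ISC libraries, and 1.56 and 1.64 in the AE libraries. The ISC replicate 1 island over it spanned 99.2 kb, was 32.5% adult-only and also covered embryonic windows. Another 2 of the 12 were at chr9:110630601-110656200 (25.6 kb) and chr9:114462001-114477800 (15.8 kb). The 15.8 kb stretch had folds of 2.47 and 2.01 in the ISC libraries, and 1.43 and 1.51 in the AE libraries. Its ISC replicate 1 island spanned 70.2 kb, was 44.2% adult-only and also covered embryonic windows.

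Chromosome 8 held 3 of the 12, at chr8:12687801-12712000, chr8:12023601-12044400 and chr8:106754801-106771400. Of these the first, 24.2 kb long, was the farthest from an embryonic island, at 77.4 kb. It had folds of 2.04 and 1.42 in the ISC libraries, and 1.51 and 1.82 in the AE libraries. The second, 20.8 kb long, had folds of 2.21 and 1.45 in the ISC libraries, and 1.42 in each AE replicate. The stretch at chr15:64204201-64221400, 17.2 kb long, was the most isolated of the 12, at 140.4 kb from an E12.5 and 523.8 kb from an E14.5 island. Its folds were 1.74 and 1.37 in the ISC libraries, and 1.42 and 1.59 in the AE libraries. The remaining stretch outside the group described next, 19.4 kb at chr2:167469601-167489000, had folds of 2.14 and 1.45 in the ISC libraries, and 1.23 and 1.53 in the AE libraries.

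Many adult-only stretches lay near another one. Another adult-only stretch lay within 50 kb of 710 stretches (55.1%), and within 5 kb of 438 (34.0%). No gap between neighbours was shorter than 1.2 kb, which is also the smallest gap between islands in each of the 8 lists. Joining stretches less than 50 kb apart gave 837 groups, of which 578 held 1 stretch and 259 held 2 or more. The groups of 2 or more held 58.2% of the adult-only length, and 27 groups with at least 20 kb each held 19.4%. Stretches cut from 1 domain by a gap in 1 list count as neighbours here, and their part in these counts was not tested. The same shares are not given for other classes of stretches, so closer spacing than in those classes is not shown.

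The group with the most adult-only length spanned 114 kb at chr5:125724601-125838600 and held 73.6 kb in 8 stretches. The ISC lists covered 97.0% and 87.4% of the span and the AE lists 98.4% and 90.7%. The E12.5 lists covered 11.8% and 6.32% of it, and neither E14.5 list covered any of it. These E12.5 islands separated adult-only stretches, while islands of ISC replicate 1 and of both AE libraries ran on through them. Its longest stretches were 25.8 kb (chr5:125745001-125770800) and 24.8 kb (chr5:125778201-125803000). The island over the first had folds of 2.65 (2.52 to 2.79) and 1.61 (1.51 to 1.72) in the ISC libraries, and 1.56 (1.49 to 1.64) and 1.85 (1.67 to 2.05) in the AE libraries. The nearest E14.5 island was 76.8 kb from this stretch, against 4 kb for the nearest E12.5 island.

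The second group spanned 91.8 kb at chr7:52859601-52951400 and held 65.6 kb in 8 stretches, the longest stretch of all among them. Both ISC lists and both AE lists covered between 88.7% and 100% of it. E12.5 replicate 1 covered 17.6% and E14.5 replicate 2 covered 3.70%, while E12.5 replicate 2 and E14.5 replicate 1 covered none of it.

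The third group, chr15:82406801-82522600, was the only one of the 5 with no embryonic window in its span. It spanned 115.8 kb and held 51 kb in 6 stretches, which lay between 119 and 215.2 kb from the nearest embryonic island. The ISC lists covered 86.4% and 49.6% of the span and the AE lists 83.9% and 68.7%. Its stretch of 13.2 kb at chr15:82406801-82420000 had folds of 3.35 (2.90 to 3.89) and 2.19 (1.86 to 2.58) in the ISC libraries, and 3.86 (3.26 to 4.60) and 3.03 (2.46 to 3.75) in the AE libraries. These were from 670 and 383 ChIP reads in ISC and 890 and 331 in AE. Fold differed along the group, and its last stretch, 13.6 kb at chr15:82509001-82522600, had 1.59 and 1.37 in the ISC libraries, and 1.84 and 1.71 in the AE libraries.

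The group at chr17:29960401-30109400 had the most stretches, 12, over 149 kb with 49.4 kb adult-only, and embryonic islands covered 36.2% of its span. The group at chr6:84354201-84457400 held 36.6 kb in 6 stretches over 103.2 kb, with embryonic islands on 15.1% of the span. Folds over its stretches ran no higher than 1.90 in ISC replicate 1, 1.46 in ISC replicate 2, 1.43 in AE replicate 1 and 1.60 in AE replicate 2.

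**Figure D3:**
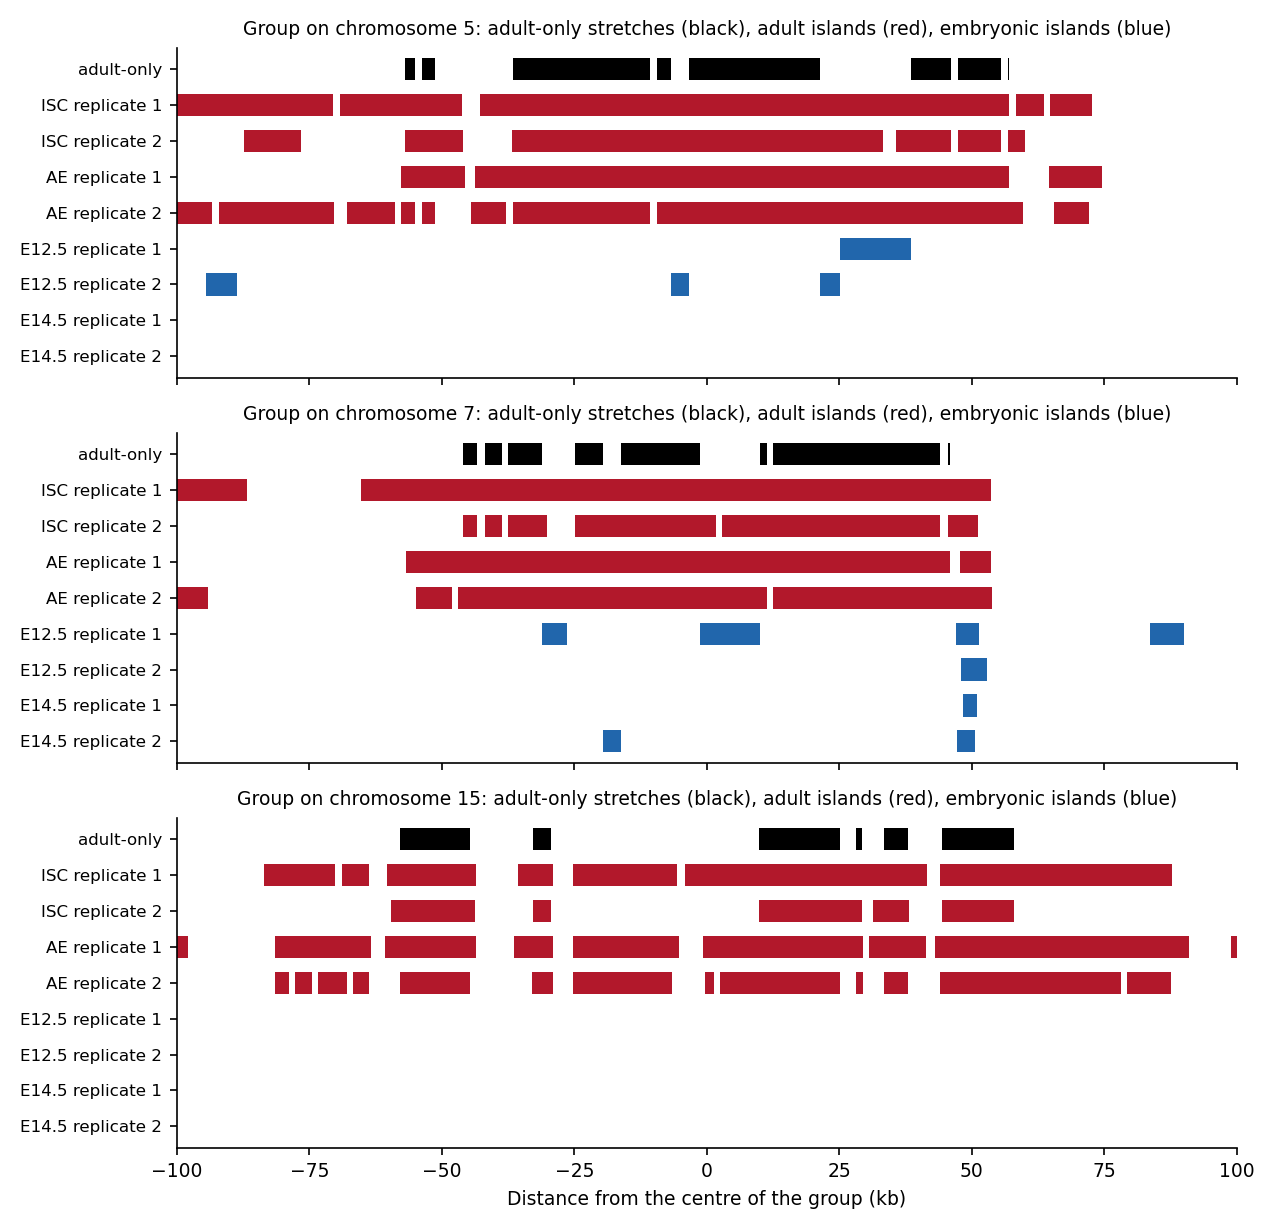
Islands of the 8 lists around the 3 groups with the most adult-only length, drawn to scale against the distance from the centre of each group (kb), with adult islands in red, embryonic islands in blue and the adult-only stretches in black. Embryonic islands lie within the spans of the groups on chromosomes 5 and 7, where 18.1% and 21.4% of the span is embryonic. None overlaps the group on chromosome 15.

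The 6 stretches of at least 2 kb that lay farthest from any embryonic island were on 6 different chromosomes, between 680.6 and 1158 kb away, and spanned 2.6 to 4.6 kb. None of the adult islands over them covered an embryonic window. The farthest, 3.2 kb at chr11:26704601-26707800, had folds of 2.01 (1.75 to 2.31) and 1.95 (1.45 to 2.64) in the ISC libraries, and 2.23 (1.85 to 2.69) and 1.66 (1.17 to 2.37) in the AE libraries. These intervals overlapped one another. The ISC replicate 1 island there spanned 20 kb, of which 16% was adult-only. The next, 2.8 kb at chr16:74410401-74413200, had folds of 2.64 and 1.84 in the ISC libraries, and 1.71 and 2.97 in the AE libraries. The stretch at chr1:131856401-131860000 had folds of 1.70 (1.41 to 2.04) and 1.25 (0.975 to 1.61) in the ISC libraries, and 3.02 (2.48 to 3.70) and 2.50 (1.76 to 3.62) in the AE libraries. The lower bound of ISC replicate 2 at this stretch was below 1. The other 3 were at chr2:16277201-16279800, chr13:89878401-89883000 and chr10:106707401-106711200.

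Among the 307 stretches of 5 kb or more, 6 were picked for the highest value of their lowest adult fold, and in these each of the 4 libraries had a fold of at least 2. The first, 6 kb at chr1:107985601-107991600, had folds of 2.67 (2.34 to 3.04) and 2.31 (1.85 to 2.90) in the ISC libraries, and 2.70 (2.39 to 3.06) and 2.86 (2.38 to 3.45) in the AE libraries, 10.8 kb from an E14.5 island and 183.2 kb from an E12.5 island. The next was on chr2:17966801-17973600, with folds of 4.03 (3.68 to 4.42) and 2.27 (2.05 to 2.52) in the ISC libraries, and 2.31 (2.07 to 2.57) and 2.36 (1.87 to 2.99) in the AE libraries. A second stretch of the same group, chr2:17958401-17965400, lay in the same ISC islands. This group spanned 28.4 kb, both ISC lists covered all of it and the AE lists 95.8% and 83.8%, and no embryonic list covered any of it. Others were chr15:82406801-82420000, described above, chr11:18913001-18921800 and chr13:97837001-97842200. The stretch on chromosome 11 lay 121.4 kb from the nearest embryonic island. Over all 1288 stretches, 324 (25.2%) had 4 folds of at least 1.5 and 26 (2.02%) had 4 of at least 2. The lowest of the 4 folds was that of AE replicate 1 in 584 stretches and that of ISC replicate 2 in 505.

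Within each adult list, islands holding adult-only stretches had a slightly lower median fold than the other islands called in all 4 adult lists. At least 1 embryonic list also covered the windows of those other islands that all 4 adult lists shared. The medians were 1.90 against 2.08 in ISC replicate 1, 1.47 against 1.57 in ISC replicate 2, 1.44 against 1.47 in AE replicate 1 and 1.58 against 1.68 in AE replicate 2. The difference of median log2 fold was negative in 4 of 4 libraries and averaged -0.08 ± 0.04 (SD, n = 4). An exact two-sided sign-flip permutation test gave p = 0.125, the smallest that 4 libraries allow, so the difference could not pass a threshold of 0.05. The test takes the libraries as independent, although replicates share a control and all were read at the same regions. Holding islands could also cover embryonic windows. For ISC replicate 1, 61.8% of the stretches lay in such an island. Islands that held neither kind of window had medians of 1.42, 1.38, 1.43 and 1.48 in the same order. Control reads per kb were slightly lower in holding than in other islands, at 20.9 and 21.1 in ISC replicate 1, 21.0 and 21.6 in ISC replicate 2, 18.3 and 19.5 in AE replicate 1, and 19.1 and 20.3 in AE replicate 2. The part of control density in the fold was not tested, and no holding island had over 3 times the median control density of its list. Among islands with adult-only windows over at least 50% of their length the mean difference shrank to -0.03, and in AE replicate 2 the holding islands then had the higher median, by 0.01 on the log2 scale.

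Adult-only stretches beyond 50 kb from any embryonic island lay in islands with higher folds than those touching one in 3 of the 4 libraries. The medians beyond 50 kb and at the border were 1.54 and 1.47 in ISC replicate 2, 1.59 and 1.40 in AE replicate 1, and 1.72 and 1.57 in AE replicate 2. In ISC replicate 1 they were 1.91 and 1.99. The stretches beyond 50 kb lay in shorter islands, with medians of 15.4 against 27.4 kb in ISC replicate 1 and 5.8 against 12.8 kb in AE replicate 2. Control density moved with the distance as well, at 16.4 against 19.8 reads per kb in AE replicate 1 and 17.1 against 20.6 in AE replicate 2, and its part in the fold was not tested. Distance was measured to the lists that chose the stretches, so these medians are a description with no test.

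**Figure D4:**
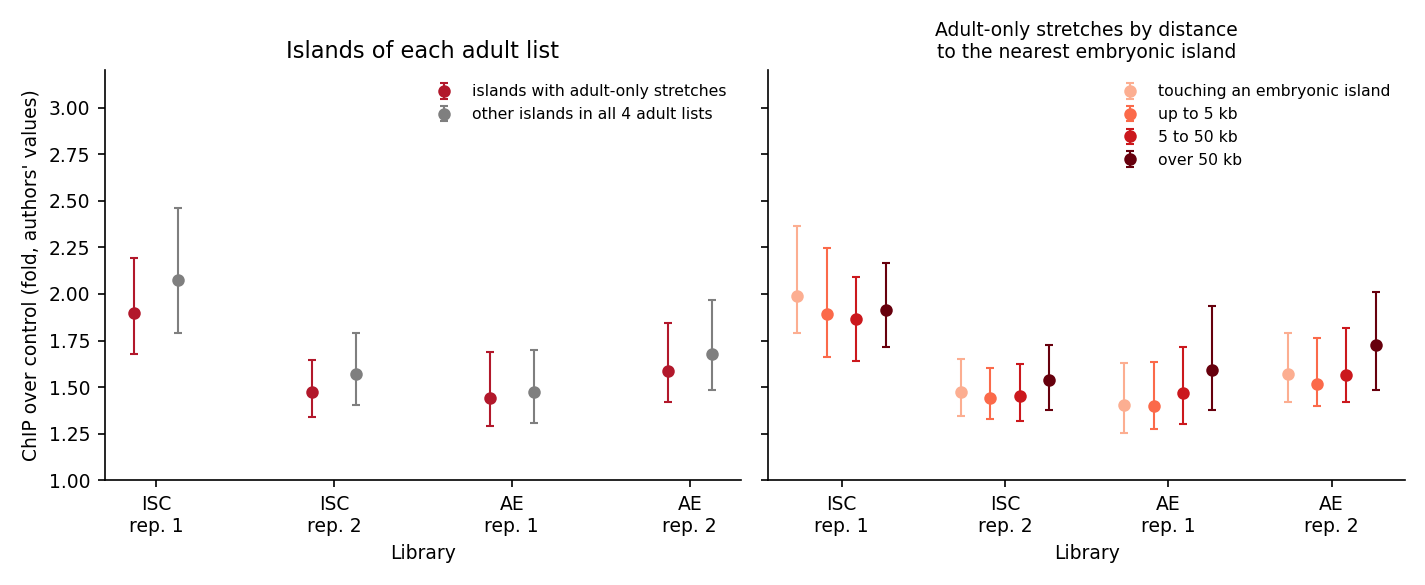
Fold of ChIP over control as deposited, in each adult library, shown as medians with quartiles: islands holding adult-only stretches (red) beside the other islands called in all 4 adult lists (grey) on the left, and adult-only stretches by distance to the nearest embryonic island on the right. Holding islands have the lower median in each library, by 0.03 to 0.13 on the log2 scale, and quartiles overlap throughout.

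The rule treats stem cells and enterocytes alike, so the contrast between them was not used to choose the stretches. The holding-minus-other difference averaged -0.11 in ISC and -0.06 in AE. The difference between them of -0.05 on the log2 scale gave p = 0.333 in an exact two-sided permutation test, the smallest that 2 against 2 libraries allow, so no difference between the populations was shown. Across the 1288 stretches, the folds of same-population replicates had Spearman correlations of 0.511 in ISC and 0.617 in AE, and the 4 pairs of ISC with AE libraries had 0.367 to 0.464. These correlations run over stretches that share islands, and replicates share a control, so they are given as a description.

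Single stretches were compared by the log2 fold of the island that held them, relative to the median of all islands of the same list. All ISC values lay above all AE values in 415 adult-only stretches (32.2%) and below them in 96 (7.45%), beside 37.6% and 3.79% of the 4486 stretches called in all 4 adult lists. The split depends on the centring: on this scale the median over the 4486 stretches was 0.49 and 0.08 in the ISC libraries against 0.02 and 0.10 in the AE libraries, so ISC replicate 1 started higher. Centred on the median over those 4486 stretches, 217 adult-only stretches (16.8%) lay higher in ISC and 365 (28.3%) lower, beside 22.7% and 20.0%. The direction of the balance between ISC and AE was therefore reversed by the choice of centre. Under both centrings a lower share of adult-only stretches than of the stretches also called in an embryonic list had ISC above AE, at 32.2% against 39.8% and 16.8% against 25.1%. The opposite order was more frequent among the adult-only stretches, at 7.45% against 2.31% and 28.3% against 16.7%. These shares were not tested, since many stretches share islands and each population has 2 libraries.

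By the first of these measures and among stretches of 5 kb or more, ISC exceeded AE the most at chr7:149711201-149718200, where the folds were 2.16 (1.95 to 2.39) and 2.08 (1.66 to 2.60) in the ISC libraries, and 1.27 (1.14 to 1.43) and 1.30 (1.12 to 1.51) in the AE libraries. This stretch of 7 kb lay 90.8 kb from the nearest embryonic island. The next were chr6:49172001-49179600, with folds of 4.14 and 2.80 in the ISC libraries, and 2.28 and 2.00 in the AE libraries, and chr1:130485601-130494800, with 2.82 and 1.89 in the ISC libraries, and 1.42 and 1.5 in the AE libraries. The fourth, chr11:118876801-118882000, touched an E12.5 island and had 1.83 and 1.90 in the ISC libraries, and 1.27 and 1.16 in the AE libraries. Its islands spanned 39.6 and 7.6 kb in ISC and 9.8 and 51.8 kb in AE.

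AE exceeded ISC the most at chr17:36731201-36739400, an 8.2 kb stretch called with nearly the same borders in all 4 adult lists. Its folds were 1.49 (1.23 to 1.81) and 1.41 (1.14 to 1.75) in the ISC libraries, and 3.19 (2.57 to 4.00) and 2.62 (2.05 to 3.37) in the AE libraries. Control reads there were 199 and 175 in the ISC libraries, and 100 and 96 in the AE libraries, and ChIP reads 233 and 178 in the ISC libraries, and 466 and 218 in the AE libraries, so fewer control reads accompany the higher AE folds, and their part was not tested. The others were chr11:121807401-121813600, with folds of 1.86 and 1.33 in the ISC libraries, and 3.12 and 2.28 in the AE libraries, chr15:101426801-101433000, with 1.94 and 1.34 in the ISC libraries, and 2.65 and 2.20 in the AE libraries, and chr16:85395201-85400600, with 1.78 and 1.24 in the ISC libraries, and 2.30 and 1.97 in the AE libraries. At chr11:121807401-121813600 the islands spanned 12 and 9 kb in ISC and 46.8 and 9 kb in AE. Each fold is that of a whole island, and island lengths could differ between lists. The difference within a stretch alone is therefore not given. All 8 were picked for their difference, so none was tested.

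On the 19 autosomes the adult-only share of the length called in all 4 adult lists ran from 7.44% to 22.8%, with a median of 19.1% (SD 4.26). Chromosome 1 had the highest share, with 0.401 Mb in 119 stretches, followed by chromosome 9 with 22.2%. Chromosome 19 had the lowest, with 0.0798 Mb of 1.07 Mb, and the next lowest was chromosome 2 with 12.8%. Chromosome 19 took 2.83% and 3.62% of the length of the ISC lists and 3.71% and 3.47% of the AE lists, against 3.77% and 3.31% of the E12.5 lists and 3.04% and 3.25% of the E14.5 lists. These adult and embryonic percentages overlapped. The X chromosome held no adult-only stretch. Only 0.019 Mb of it were called in all 4 adult lists, and the adult lists covered 0.325 and 0.183 Mb of it in ISC, and in AE 0.228 and 0.246 Mb. The E12.5 lists covered 0.270 and 1.06 Mb of it and the E14.5 lists 2.24 and 3.16 Mb. The adult donors were males and the sex of the embryos is not given, so sex and age cannot be told apart on this chromosome.

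**Figure D5:**
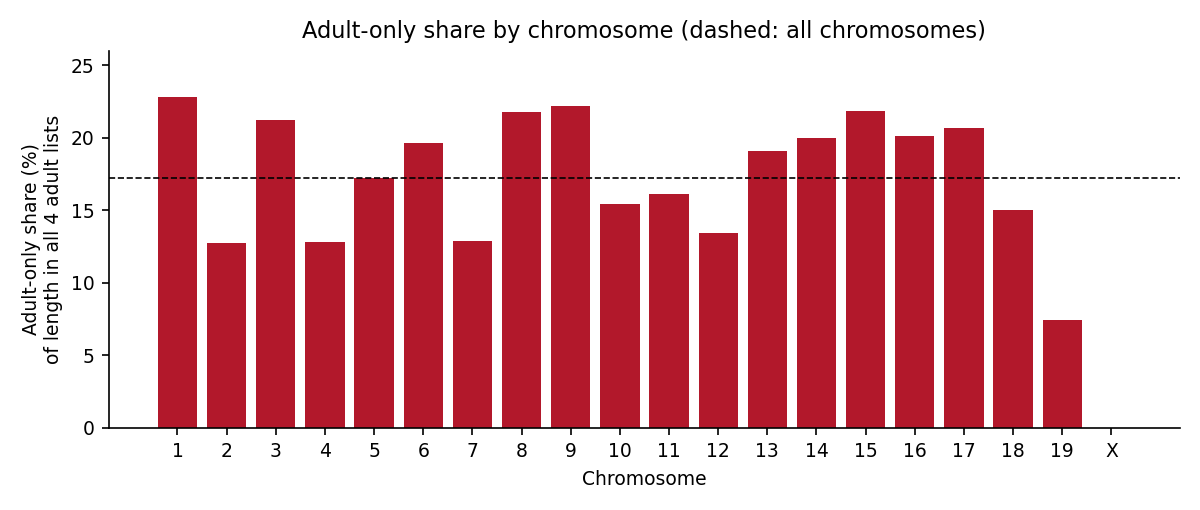
Adult-only length as a percent of the length called in all 4 adult lists on each chromosome, with the value over all chromosomes, 17.3%, as a dashed line. Chromosome 19 has the lowest autosomal share, 7.44%, chromosome 1 the highest, 22.8%, and chromosome X has none.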

How the data were processed

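The build was mm9, and SICER 1.1, Bowtie 1.1.2, SAMtools 1.2 and bcl2fastq 1.8.4 were used, per the submitters' processing notes. SICER joins enriched windows into islands, called here for each ChIP library. The deposited lists have no header, and their columns were read from the values. The deposited island counts are whole ChIP and control reads, not normalized. The deposited fold is a ratio of ChIP to control reads scaled by library size, and each island's p-value and its FDR come from the authors, with no FDR above 0.01. In islands that replicates share exactly (17 in ISC, 41 in AE, 30 at E12.5, 52 at E14.5) control counts were identical, so replicates share a control. Total reads per library are not given in the sources used here, and counts are listed only inside islands, so no count test between libraries was possible.

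Lists were painted on 200 bp windows with Python 3.11.15, numpy 2.4.6 and scipy 1.17.1, after tests on simulated lists. Folds were compared within a list, with exact permutation tests over libraries. Regions named are the 12 longest stretches, the 5 groups with most length, the 6 farthest of 2 kb or more, the 6 of 5 kb or more with the highest lowest fold, and the 4 with the largest difference either way between ISC and AE. The stretches, lists and tests were chosen with earlier results of these data known. Gene lists and cell type markers needed an annotation of mm9 and were not used here.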

Additional observations from a re-analysis of the deposited data

Results flagged for a closer look

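The list of ISC replicate 1 covered 241 Mb, against 60.8 to 91.0 Mb in the other adult lists, and stood outside their spread by Dixon's criterion for 4 libraries. Without it, 1320 stretches with 4.60 Mb met the rule, against 1288 and 4.45 Mb with it, while leaving out ISC replicate 2 instead gave 2858 stretches with 11.2 Mb. When left out of the rule in turn, E14.5 replicate 2 covered 22.8% of the adult-only windows chosen without it, against 5.91 to 6.97% for the other embryonic libraries, and was also outside their spread. Its list was the longest of the embryonic lists, at 109 Mb. At equal covered length E14.5 replicate 2 covered 13.6%, against 8.91 to 9.46% for the other embryonic libraries. Without it 1754 stretches with 5.77 Mb met the rule. This criterion was applied to 8 measures, and chance alone marks about 1 in 20 such groups.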

How the results depend on the processing

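With a fold of 1.5 or more the rule gave 1.40 Mb in 362 stretches, with an FDR of 1e-10 or less 1.39 Mb in 246, and at equal covered length 727 stretches with 3.11 Mb. These lists were filtered, so fewer windows could be called in all 4 adult lists, and the embryonic lists were shorter as well. Of the length kept at equal covered length, 82.7% was among the adult-only windows of the full lists. This share was 83.4% with the fold filter and 73.0% with the FDR filter. The shared length was 57.8% of the full adult-only length at equal covered length. It was 26.3% of it with the fold filter and 22.8% with the FDR filter. Leaving out a library gave 4.60 to 11.2 Mb in 1320 to 2858 stretches: the length was 11.2 Mb without ISC replicate 2, 6.74 Mb without AE replicate 1 and 6.76 Mb without AE replicate 2, since the rule then asks for fewer lists. Dropping islands of high control density changed no stretch, and extending embryonic islands by 1 kb left 1047 stretches. The share of stretches beyond 50 kb was 34.0% with a fold of 1.5 or more and 36.2% with an FDR of 1e-10 or less, against 16.1% in the full lists. At equal covered length it was 19.5%. Without E12.5 replicate 2 it was 22.3%. Left-out coverage averaged 66.6 to 69.6% in adult and 8.06 to 10.2% in embryonic libraries under these 3 filters; this use of the filters and the second centring of ISC against AE were chosen after seeing the data.

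Averaged over libraries, the lower fold of holding islands kept its direction in all 7 alternatives, from -0.10 to -0.03 on the log2 scale (exact sign-flip p 0.125 or 0.25). With means of log2 fold in place of medians it was -0.07 (exact sign-flip p = 0.25). Not every library then had the lower value in holding islands. The ISC minus AE difference kept its direction in all 8 of its alternatives, with no exact permutation p under 0.333. The replicate numbers were not shown to pair ISC and AE libraries, since replicate differences correlated at 0.0665 over 4486 stretches. With the replicate block the ISC minus AE difference was -0.054 (exact p = 0.5, the smallest for 2 pairs). Joining stretches up to 600 bp apart changed nothing, because no gap is shorter than 1.2 kb. Depth per library is unknown, so an embryonic level under the calling threshold cannot be given.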
